A study of Mus musculus with 6 samples.

Results

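The genes described here are 47 nucleolar and ribosome biogenesis genes, taken as a list of names. No cut on measured values was used, but the list was chosen with earlier results of these data known. A gene was read through 1 probe set, the one with the highest mean over the 6 arrays among those annotated with that gene alone. By this rule 44 of 47 were measured, among 22180 genes in all. Fbl, Tsr1 and Mrto4 are on the array only through probe sets that also carry the name of another gene, so they have no place in the counts. The arrays read RNA of mouse leukaemia cells driven by MLL-AF9, a fusion oncogene of acute myeloid leukaemia. The study set 3 arrays of such leukaemia labelled WT against 3 labelled Evi1 Tg, which carry an Evi1 transgene. Both groups were of C57BL/6J background and untreated, and each sample was 10000 GFP+ cells of the whole leukaemia taken by a cell sorter. EVI1 is a zinc finger transcription factor made from the gene Mecom. The sources used here do not give the promoter of the transgene, the cells in which it is active or the age of the mice. Nor do they say that a group's arrays came from separate animals. The p-values therefore measure only how these samples spread, which may be technical.

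The nucleolus is where cells make ribosomes. RNA polymerase I transcribes the long precursor of ribosomal RNA there, small nucleolar ribonucleoproteins guide its chemical modification and early cuts, and a sequence of assembly factors folds it with ribosomal proteins into the small and the large subunit. MYC is known to drive these genes, and fast-growing cells such as leukaemia blasts carry prominent nucleoli. Nucleophosmin (Npm1), a chaperone of the nucleolus, is also one of the genes most often mutated in human acute myeloid leukaemia.

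All 44 measured members lay above the background intensity of 73.8, the 90th percentile of the mean levels of 59 genes of tissues other than blood. All 12 markers of myeloid leukaemia, among them Hoxa9, Meis1 and Ptprc, lay above it too, against 1 of 9 for T cells, 1 of 8 for B cells, 5 of 9 for macrophages, 3 of 6 for megakaryocytes, 8 of 10 for neutrophils, 3 of 8 for mast cells, basophils and eosinophils, and 0 of 7 and 0 of 6 for NK and erythroid cells. Mecom itself was below background in both groups, with a mean log2 intensity of 5.21 for WT against 5.27 for Evi1 Tg (limma adjusted p = 0.890). Whether its probes read the transgene is unknown, so the groups rest on the labels. WT 3 stood apart from WT 1 and WT 2 in the genes described here, and differences are therefore given with and without it. Values of a gene are log2 intensities, always in the order of arrays 1, 2 and 3 of each group, and a difference of 1 on this scale is a doubling.

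Most nucleolar genes had a higher signal in Evi1 Tg on average, but by amounts of the same order as the spread among the WT arrays. The Evi1 Tg minus WT difference was above 0 for 40 of 44 members, against 53.5% of all genes and 50.4% of genes above background. Its median was 0.20 on the log2 scale, against 0.012 over all genes, and single members ranged from -0.10 to 0.56. By limma at a Benjamini-Hochberg adjusted p under 0.05, adjusted over all genes, 0 members were higher and 0 lower, where 0.00902% and 0.104% of all genes were called. The smallest adjusted p among the members was 0.201. At an unadjusted limma p under 0.05, 10 members were higher and 0 lower, against 4.5% and 5.8% of all genes, and 7.57% higher among genes above background. In those same 10 genes all Evi1 Tg arrays lay above all WT arrays. They were Polr1b, Nop56, Rrp9, Noc4l, Rrp12, Nob1, Nop2, Rrp1b, Noc2l and Ppan, or 22.7% of the measured members, where 7.08% of all genes and 8.13% of genes above background had the groups separate in this direction. In Rrp12 the gap between the groups was only 0.00073. Other probe sets of Nop56 and Ppan had overlapping groups, whereas the other one of Ddx18 and some of Taf1d had separate groups. All Evi1 Tg arrays lay below all WT arrays in 0 members, against 7.47% of all genes. In bulk RNA of this kind, more cells with active nucleoli in Evi1 Tg and more of these RNAs per cell cannot be told apart.

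**Figure D1:**
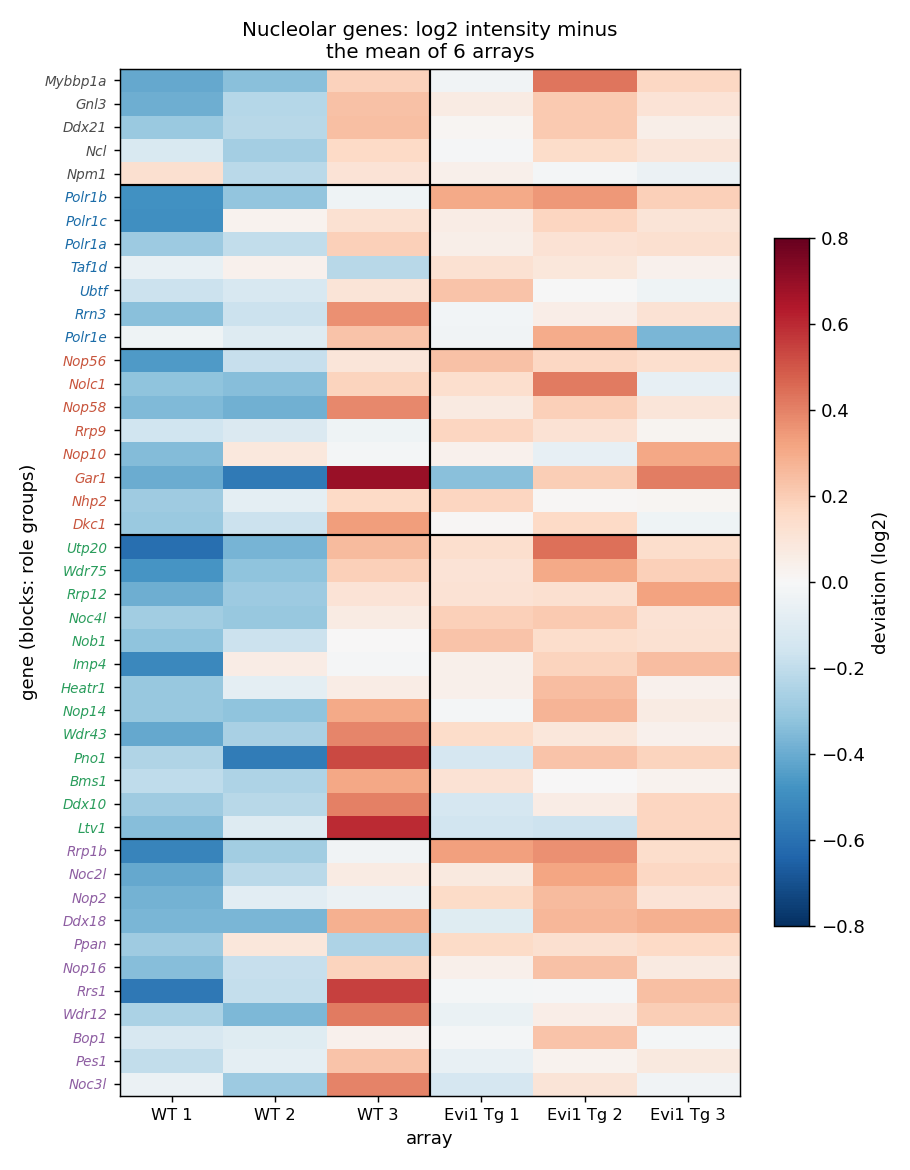
Log2 intensity of the 44 measured members on each array, as the deviation from the gene's mean over the 6 arrays (colour scale in log2 units), in blocks by role and ordered within a block by the Evi1 Tg minus WT difference. WT 1 and WT 2 are low over most rows, with median deviations of -0.32 and -0.22, whereas WT 3 (0.18) is coloured like the Evi1 Tg arrays.

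WT 3 lay apart from the other WT arrays. As deviations from each gene's 6-array mean, the members had medians of -0.32, -0.22 and 0.18 on the WT arrays against 0.045, 0.17 and 0.11 on the Evi1 Tg arrays, so that WT 3 lay at the level of the Evi1 Tg arrays and above the highest of them by a small margin. WT 3 was the highest of the WT arrays for 39 of 44 members (88.6%), against 35.2% of all genes and 51.9% of genes above background. It was the highest of all 6 arrays for 18 members, and WT 1 or WT 2 was the lowest for 42. WT 3 exceeded the mean of WT 1 and WT 2 by a median of 0.44, with a range from -0.21 for Taf1d to 1.18 for Gar1. The standard deviation among WT arrays was larger than that among Evi1 Tg arrays for 41 of 44 members, with medians of 0.28 and 0.11. Over all genes above background these medians were 0.20 and 0.13.

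Without WT 3 all 44 of 44 members had a difference above 0, against 51.5% of all genes and 55.1% of genes above background, and the median was 0.37. Then 5 members passed as higher with limma (11.4% of those measured, where 1.73% of all genes passed as higher and 0.78% as lower, and 3.79% of genes above background as higher) and 0 as lower. These were Polr1b (0.68), Utp20 (0.73), Rrp1b (0.68), Wdr75 (0.60) and Nop58 (0.49), where the limma adjusted p-values lay between 0.0312 and 0.0498. In the other 14 settings tried, the adjusted p of these 5 genes lay between 0.0628 and 0.972, so the calls rest on leaving out that array. Only 2 of them, Polr1b and Rrp1b, also had separate groups with all arrays in. Leaving out WT 1 instead gave a median of 0.12 with 36 members above 0, and leaving out WT 2 gave 0.17 with 34.

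**Figure D2:**
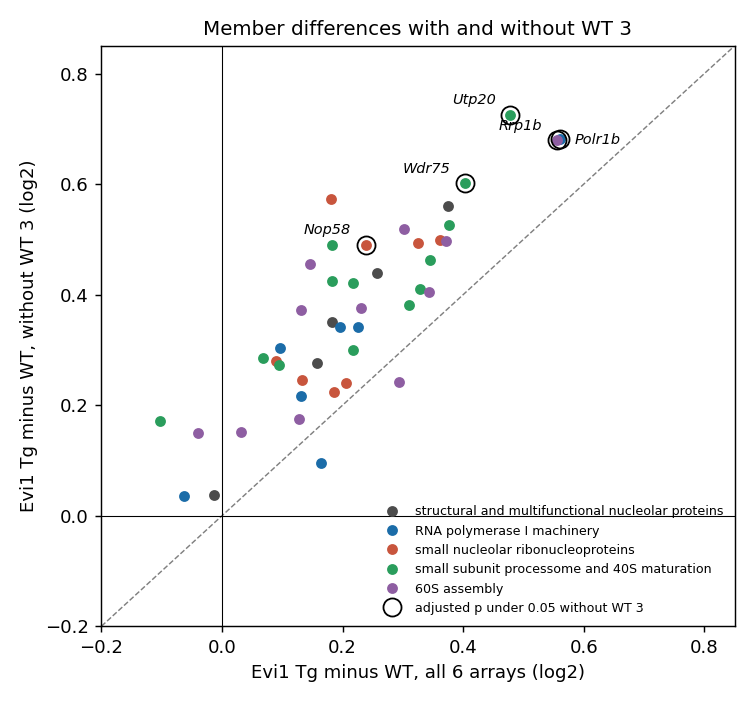
Each point is a member, with its Evi1 Tg minus WT difference over all 6 arrays on the horizontal axis and over 5 arrays without WT 3 on the vertical axis, both in log2 units. The dashed line marks equal values, and rings mark the 5 genes with a limma adjusted p under 0.05 without WT 3. All but Taf1d and Ppan lie above the line.

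Since MYC with its partner MAX is known to bind the letters CACGTG (the E-box, which reads the same on both strands), promoters of the members were searched for them. RefSeq promoters of GRCm38.p6, 250 bases before to 50 after a transcript start, were matched for 42 of 47 members, and Npm1, Fbl, Rrp12, Bop1 and Rrs1 had no entry. CACGTG stood in the promoter of 10 of 42 members (23.8%), against 8.09% of all genes with a promoter and 8.91% of protein-coding genes. It stood in the 50 bases after the start for 7 members (16.7%), where 1.28% of all genes have it. Among other ribosome biogenesis genes 15 of 81 held the letters, among cytosolic ribosomal proteins 6 of 57 and among cell division genes 1 of 30. The letters CACGCG, a related motif counted separately on either strand, stood in 14 member promoters (33.3%) and in 10.5% of all. Promoters of the members were also richer in G and C (median 59.3%) than all promoters (52.7%), and the part of base composition in these shares was not tested. Letters that match are a description, not a bound site.

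The sites are shown with up to 12 bases on each side, 5′ to 3′ in the direction of transcription, the motif in capitals, since MYC with MAX is known for binding these letters. They belong to Pes1 (chr11:3963965-3963994, plus strand, first letter of the motif 3 bases into the transcript), Wdr43 (chr17:71616220-71616249, plus strand, first letter of the motif 18 bases into the transcript), Tsr1 (chr11:74898092-74898121, plus strand, first letter of the motif 25 bases into the transcript), Ltv1 (chr10:13193092-13193121, minus strand, first letter of the motif 29 bases into the transcript), Mybbp1a (chr11:72441355-72441376, plus strand, first letter of the motif 41 bases into the transcript), Nop2 (chr6:125131811-125131840, plus strand, first letter of the motif 60 bases before the start), Imp4 (chr1:34439696-34439725, plus strand, first letter of the motif 121 bases before the start) and Rrn3 (chr16:13780639-13780668, plus strand, first letter of the motif 48 bases before the start).
Pes1: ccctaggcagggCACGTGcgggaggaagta
Wdr43: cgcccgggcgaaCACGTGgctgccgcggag
Tsr1: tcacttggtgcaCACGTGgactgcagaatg
Ltv1: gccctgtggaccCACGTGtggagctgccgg
Mybbp1a: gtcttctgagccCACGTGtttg
Nop2: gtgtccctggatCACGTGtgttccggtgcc
Rrn3: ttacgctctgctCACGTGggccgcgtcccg
Imp4: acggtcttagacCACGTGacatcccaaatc
Utp20 and Pno1 hold the motif 38 and 38 bases into the transcript. The median difference of members that hold it was 0.18 over 9 measured genes, against 0.22 over 31 without it. The excess of WT 3 over WT 1 and WT 2 had a median of 0.62 with the motif and 0.41 without it.

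For orientation the 250 bases before the start follow for Nop2 (chr6:125131633-125131882, plus strand, 67.6% G and C), whose groups were separate, for Rrn3 (chr16:13780449-13780698, plus strand, 59.6% G and C), whose groups overlapped and whose promoter is the one with 2 copies of CACGTG, and for Rrp1b (chr17:32035912-32036161, plus strand, 60.4% G and C), which separated the groups and has 0 copies in this window.
Nop2: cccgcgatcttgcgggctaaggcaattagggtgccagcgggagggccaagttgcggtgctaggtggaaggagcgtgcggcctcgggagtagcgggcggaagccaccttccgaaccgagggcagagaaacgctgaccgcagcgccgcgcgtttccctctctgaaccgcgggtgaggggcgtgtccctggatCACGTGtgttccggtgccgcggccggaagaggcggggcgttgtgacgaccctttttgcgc
Rrn3: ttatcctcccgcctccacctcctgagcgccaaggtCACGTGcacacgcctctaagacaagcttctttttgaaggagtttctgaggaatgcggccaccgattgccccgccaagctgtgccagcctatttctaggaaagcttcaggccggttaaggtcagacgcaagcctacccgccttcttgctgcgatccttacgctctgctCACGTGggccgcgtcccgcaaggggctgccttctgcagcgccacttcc
Rrp1b: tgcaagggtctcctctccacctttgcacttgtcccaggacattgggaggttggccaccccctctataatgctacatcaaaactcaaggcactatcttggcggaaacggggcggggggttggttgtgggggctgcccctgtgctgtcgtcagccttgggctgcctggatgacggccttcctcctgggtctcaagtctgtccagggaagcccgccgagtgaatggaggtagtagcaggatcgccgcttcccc
CACGTG, in capitals, stands in the promoters of Nop2, which separated the groups, and of Rrn3, which did not.

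Of the RNA polymerase I machinery 6 of 7 members lay above 0, against 53.5% of all genes, with a median difference of 0.16. Polr1b, the partner of Polr1a in the catalytic core of the enzyme, had the largest difference of all members. Its log2 intensity was 7.41, 7.58 and 7.86 across WT against 8.20, 8.24 and 8.09 across Evi1 Tg. Every Evi1 Tg array exceeded every WT array, although WT 3 lay closest to them. The means were 7.62 ± 0.23 and 8.18 ± 0.080 (SD, n = 3 each), a difference of 0.56 (SE 0.13; 0.68 without WT 3) or 1.47-fold, with a limma adjusted p of 0.201. Polr1a, the largest subunit, read 8.38, 8.47 and 8.86 across WT against 8.72, 8.79 and 8.80 across Evi1 Tg. Here WT 3 was above every Evi1 Tg array, and the difference was 0.20 (SE 0.13; 0.34 without WT 3). Both large subunits of one enzyme therefore had the same direction but a different overlap of the groups.

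The other members of this machinery had smaller differences than Polr1b. Ubtf, which binds the ribosomal DNA and keeps it open, read 9.77, 9.81 and 10.04 across WT against 10.17, 9.94 and 9.91 across Evi1 Tg, so that WT 3 fell within the Evi1 Tg range. Its difference was 0.13 (SE 0.11; 0.22 without WT 3). Rrn3, which links the polymerase to the promoter, had 0.096 (SE 0.18; 0.30 without WT 3), and Polr1c, a subunit shared with RNA polymerase III, 0.22 (SE 0.16; 0.34 without WT 3). Polr1e, the subunit PAF53, was one of 4 members below 0, with 6.66, 6.60 and 6.93 across WT against 6.67, 6.99 and 6.33 across Evi1 Tg. The Evi1 Tg arrays held both its highest and its lowest value, and the difference of -0.063 (SE 0.18; 0.036 without WT 3) was smaller than that spread.

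Taf1d, a subunit of the promoter selectivity factor SL1, could not be read cleanly. Its brightest probe set gave 11.59, 11.69 and 11.44 across WT against 11.78, 11.74 and 11.69 across Evi1 Tg, a difference of 0.16 (SE 0.093; 0.095 without WT 3) with WT 3 the lowest array. It was 1 of 11 probe sets annotated with Taf1d alone, whose differences ran from -0.089 to 0.36. RefSeq places 6 genes of small nucleolar RNAs (snoRNAs) inside Taf1d, and the annotation does not say which transcript each probe set reads.

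All 8 measured members of the small nucleolar ribonucleoproteins lay above 0, against 53.5% of all genes, with a median difference of 0.20. In box C/D particles, which guide methylation of ribosomal RNA, Nop56 and Nop58 form the core with the methyltransferase fibrillarin (Fbl). Nop56 read 10.39, 10.66 and 10.94 across WT against 11.08, 11.01 and 10.98 across Evi1 Tg. The groups did not overlap, the SD of the Evi1 Tg arrays was 0.051, and the difference was 0.36 (SE 0.14; 0.50 without WT 3) with a limma adjusted p of 0.439. Other probe sets annotated with Nop56 alone had 0.16 and 0.64, with overlapping groups. Nop58, its partner, read 9.66, 9.63 and 10.40 across WT against 10.08, 10.20 and 10.11 across Evi1 Tg. WT 3 was the highest array of all, and the difference of 0.24 (SE 0.20) became 0.49 without it.

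The probe set shared by Fbl and Tulp4 read 9.01, 9.13 and 9.68 across WT against 9.58, 10.20 and 9.99 across Evi1 Tg, a difference of 0.65 that cannot be assigned to either gene. WT 3 lay within the Evi1 Tg range. Rrp9, a protein of the U3 particle that makes the early cuts, read 7.46, 7.51 and 7.59 across WT against 7.80, 7.74 and 7.65 across Evi1 Tg. Its groups were separate by a small gap, with a difference of 0.21 (SE 0.083; 0.24 without WT 3). It had the smallest SE of all members, and its limma adjusted p was 0.460.

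Box H/ACA particles convert uridine to pseudouridine. Dkc1, their catalytic subunit, read 9.63, 9.76 and 10.27 across WT against 9.94, 10.09 and 9.90 across Evi1 Tg. WT 3 was again above all Evi1 Tg arrays, and the difference was 0.090 (SE 0.17; 0.28 without WT 3). Its partners Gar1, Nhp2 and Nop10 had 0.18 (SE 0.35; 0.57 without WT 3), 0.13 (SE 0.13; 0.25 without WT 3) and 0.19 (SE 0.15; 0.22 without WT 3). Gar1 had the largest SE of all members, and WT 3 read 8.24 against 7.15 and 6.98 in WT 1 and WT 2. Nolc1, a chaperone of both kinds of particle, read 9.06, 9.04 and 9.56 across WT against 9.52, 9.80 and 9.32 across Evi1 Tg. The groups overlapped through WT 3, and the difference was 0.32 (SE 0.18; 0.49 without WT 3).

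Factors of the small subunit ranged from -0.10 to 0.48 in their differences, with a median of 0.22. Of them 12 of 13 lay above 0, against 53.5% of all genes. Nob1, the nuclease that makes the final cut of the small subunit's RNA, read 8.88, 9.03 and 9.20 across WT against 9.43, 9.34 and 9.32 across Evi1 Tg. All Evi1 Tg arrays were above all WT arrays, and the difference was 0.33 (SE 0.10; 0.41 without WT 3) with a limma adjusted p of 0.328. Noc4l, a processome protein, read 8.19, 8.17 and 8.53 across WT against 8.66, 8.68 and 8.58 across Evi1 Tg. Its groups were separate too, and the difference was 0.34 (SE 0.12; 0.46 without WT 3). Rrp12, which helps to export the subunit, read 7.86, 7.96 and 8.36 across WT against 8.36, 8.38 and 8.57 across Evi1 Tg. WT 3 and Evi1 Tg 1 were effectively tied, 0.00073 apart, so its groups count as separate in name only. The difference was 0.38 (SE 0.14; 0.53 without WT 3).

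For large scaffold proteins of the processome, WT 1 and WT 2 lay further from Evi1 Tg than WT 3 did. Utp20 read 8.22, 8.45 and 9.08 across WT against 8.96, 9.27 and 8.97 across Evi1 Tg. Wdr75 read 9.11, 9.26 and 9.78 across WT against 9.70, 9.89 and 9.78 across Evi1 Tg. In both genes WT 3 fell within the Evi1 Tg range, and their differences were 0.48 (SE 0.22; 0.73 without WT 3) and 0.40 (SE 0.17; 0.60 without WT 3). These genes are given in full because they passed the test without WT 3, a choice made after their values were seen. Heatr1, another scaffold, read 9.51, 9.74 and 9.87 across WT against 9.86, 10.06 and 9.85 across Evi1 Tg, with a difference of 0.22 (SE 0.12; 0.30 without WT 3). WT 3 lay just above 2 of the Evi1 Tg arrays.

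At the other end of this group, Ltv1, a late factor of export and maturation, had the lowest difference of all members, -0.10 (SE 0.24; 0.17 without WT 3). It read 8.59, 8.83 and 9.53 across WT against 8.78, 8.76 and 9.10 across Evi1 Tg. WT 3 exceeded every other array, and leaving it out turned the sign. Ddx10, an RNA helicase, read 8.39, 8.46 and 9.08 across WT against 8.54, 8.74 and 8.85 across Evi1 Tg, a difference of 0.067 (SE 0.19; 0.29 without WT 3) with WT 3 highest again. Of the remaining genes the differences were 0.31 (0.38 without WT 3) for Imp4, a protein of the U3 particle, 0.22 (0.42 without WT 3) for Nop14, a processome protein, and 0.18 (0.42 without WT 3) for Wdr43, which joins the processome early. They were 0.18 (0.49 without WT 3) for Pno1, the partner of Nob1, and 0.094 (0.27 without WT 3) for Bms1, a GTPase of the processome. The probe set shared by Tsr1 and Srr had a difference of 0.20.

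Of the factors of the large subunit 10 of 11 lay above 0, against 53.5% of all genes, with a median of 0.23. In 4 of them (36.4%) the groups were separate, against 7.08% of all genes and 8.13% of genes above background. Rrp1b, a nucleolar protein of large subunit assembly, read 7.53, 7.78 and 8.02 across WT against 8.38, 8.42 and 8.19 across Evi1 Tg. The groups were apart, and the difference was 0.56 (SE 0.14; 0.68 without WT 3) with a limma adjusted p of 0.236. Nop2, which methylates the large subunit's RNA, read 9.76, 10.06 and 10.09 across WT against 10.30, 10.39 and 10.25 across Evi1 Tg. WT 2 and WT 3 were close to each other and below all Evi1 Tg arrays, so that its difference of 0.34 (SE 0.11; 0.41 without WT 3) depended little on WT 3. Noc2l, a protein of early large subunit particles, read 9.92, 10.11 and 10.39 across WT against 10.40, 10.64 and 10.48 across Evi1 Tg. WT 3 lay directly below Evi1 Tg 1, and the difference was 0.37 (SE 0.14; 0.50 without WT 3). Ppan, another assembly factor with separate groups, read 8.45, 8.82 and 8.48 across WT against 8.88, 8.86 and 8.89 across Evi1 Tg, and is given on every array since its order of WT arrays, seen in the values, was unlike the others. WT 2 and not WT 3 was closest to Evi1 Tg, and the difference was 0.29 (SE 0.11; 0.24 without WT 3). The other probe set of Ppan had a difference of 0.14, with overlapping groups.

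Pes1, which forms a complex with Bop1 and Wdr12 that is needed to process the large subunit's RNA, was nearly level between the groups. It read 9.60, 9.72 and 10.02 across WT against 9.73, 9.82 and 9.87 across Evi1 Tg, a difference of 0.031 (SE 0.12; 0.15 without WT 3). WT 3 was the highest array. Bop1 and Wdr12 had 0.13 (SE 0.10; 0.18 without WT 3) and 0.13 (SE 0.20; 0.37 without WT 3), and the groups overlapped for all 3 partners. Noc3l, the counterpart of Noc2l in this pathway, lay below 0 with 8.92, 8.68 and 9.37 across WT against 8.84, 9.07 and 8.94 across Evi1 Tg, a difference of -0.041 (SE 0.18; 0.15 without WT 3). The differences of the others were 0.30 (0.52 without WT 3) for Ddx18, an RNA helicase, 0.23 (0.38 without WT 3) for Nop16, an early assembly factor, and 0.15 (0.46 without WT 3) for Rrs1, which brings in the smallest ribosomal RNA. The other probe set of Ddx18 had 0.55, with separate groups. The probe set shared by Mrto4 and 2 of its pseudogenes had 0.35.

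The proteins that give the nucleolus its form did not separate the groups. Npm1 read 11.64, 11.30 and 11.62 across WT against 11.56, 11.50 and 11.47 across Evi1 Tg. WT 1 and WT 3 were above all Evi1 Tg arrays and WT 2 below them, and the difference was -0.014 (SE 0.11; 0.038 without WT 3) with a limma adjusted p of 0.986. Its other probe set had a difference of 0.13. Npm1 has processed copies in the genome, and cross-hybridisation was not tested. Nucleolin (Ncl), which binds nascent ribosomal RNA, read 10.69, 10.54 and 10.97 across WT against 10.80, 10.96 and 10.91 across Evi1 Tg. WT 3 was the highest array by a small margin, and the difference was 0.16 (SE 0.12; 0.28 without WT 3).

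Mybbp1a, a nucleolar partner of MYB, read 10.04, 10.12 and 10.64 across WT against 10.43, 10.88 and 10.62 across Evi1 Tg. WT 3 lay between Evi1 Tg 1 and Evi1 Tg 2, and the difference was 0.38 (SE 0.19; 0.56 without WT 3). Nucleostemin (Gnl3), a GTPase of stem and tumour cells, read 9.36, 9.52 and 9.98 across WT against 9.82, 9.96 and 9.86 across Evi1 Tg. WT 3 was above all other arrays, and the difference was 0.26 (SE 0.16; 0.44 without WT 3). The helicase Ddx21 had 0.18 (SE 0.15; 0.35 without WT 3).

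**Figure D3:**
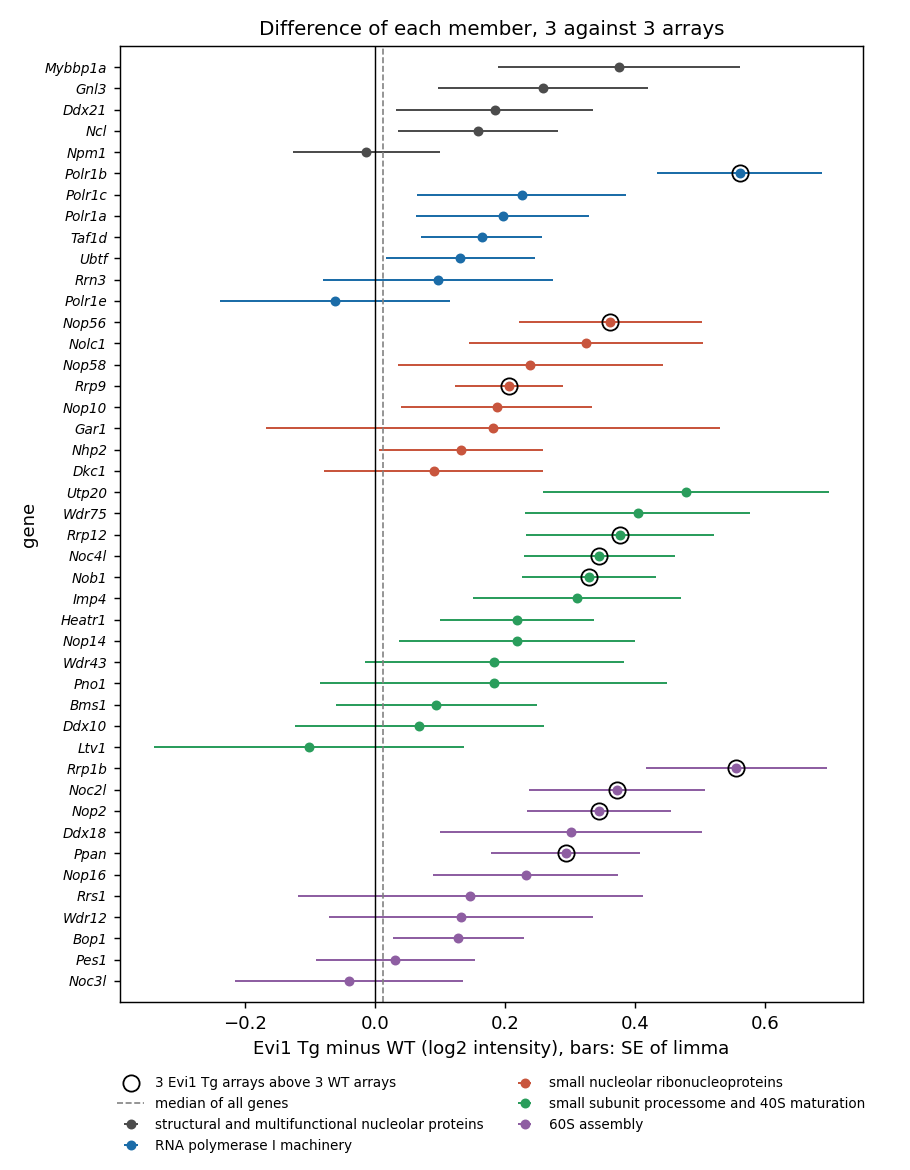
Evi1 Tg minus WT difference of the 44 measured members in log2 units (points) with limma's standard error (bars), n = 3 arrays per group, coloured by role, with rings on the 10 genes whose groups did not overlap and a dashed line at the median of all genes (0.012). Differences run from -0.10 for Ltv1 to 0.56 for Polr1b, and 4 genes lie below 0.

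Most other genes of ribosome biogenesis also had a higher mean signal in Evi1 Tg, over a wider range (-0.49 to 0.69) than the members. Of 95 measured genes of 102 listed, 78 lay above 0, with a median of 0.17 (0.30 without WT 3). By limma 0 passed as higher and 0 as lower over all genes, and 10 and 1 at an unadjusted p under 0.05. At that unadjusted p 4.5% of all genes were higher and 5.8% lower, and 7.57% of genes above background were higher. Without WT 3, 6 passed as higher (6.3%) and 0 as lower. The shares passing as higher were then 1.73% of all genes and 3.79% of genes above background. Their median deviations were -0.25, -0.17 and 0.18 on the WT arrays against 0.035, 0.12 and 0.12 on the Evi1 Tg arrays, and WT 3 was the highest WT array for 84 of them. Urb2, a nucleolar assembly factor, read 9.75, 9.98 and 10.06 across WT against 10.60, 10.72 and 10.53 across Evi1 Tg, a difference of 0.69 (SE 0.11; 0.75 without WT 3; limma adjusted p = 0.0973) with separate groups. Pelp1 had 0.61 (SE 0.14; 0.63 without WT 3). Utp23 had the smallest p among those below 0, with -0.49 (SE 0.16; -0.31 without WT 3), and after it came Nsa2 with -0.22 (SE 0.10; -0.16 without WT 3).

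Ribosomal proteins, which these factors assemble, had a median difference near 0 with single genes on either side, from -0.31 to 0.42. Of 59 measured cytosolic ribosomal proteins of 78 listed, 27 lay above 0, with a median of -0.020 (-0.048 without WT 3). Their median deviations were 0.010, 0.044 and -0.031 on the WT arrays against 0.078, -0.0093 and -0.062 on the Evi1 Tg arrays. WT 3 was the highest WT array for 17 of them, against 39 of 44 nucleolar members. By limma 0 passed as higher and 0 as lower over all genes, and 5 and 0 at an unadjusted p under 0.05. At that unadjusted p 4.5% of all genes were higher and 5.8% lower, and 7.57% of genes above background were higher. Without WT 3, 0 passed as higher and 0 as lower. Rpl37 had 0.42 (SE 0.096; 0.40 without WT 3), Rps20 0.32 (SE 0.10; 0.25 without WT 3), Rpl37a -0.18 (SE 0.082; -0.15 without WT 3) and Rpl19 -0.21 (SE 0.11; -0.25 without WT 3). Of the 59 genes 54 lay above background. Rps20 was near background (log2 6.21), with means of 6.05 in WT and 6.37 in Evi1 Tg. Rpl37 was dim too, with means of 6.67 and 7.09. Ribosomal proteins have many processed copies, and cross-hybridisation was not tested.

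Myc, the factor best known for driving nucleolar genes, read 10.80, 10.74 and 10.57 across WT against 11.13, 10.73 and 10.81 across Evi1 Tg. WT 3 had the lowest Myc signal of all arrays while the nucleolar members were high there, and the group difference was 0.19 (SE 0.13; 0.12 without WT 3; limma adjusted p = 0.705). Of 12 genes of the MYC network 6 lay above 0, with a median of -0.020 (-0.035 without WT 3), and by limma 0 passed as higher and 0 as lower (0 and 1 at an unadjusted p under 0.05). Without WT 3, 0 passed as higher and 1 as lower, the latter being Mxd4. Mxd4, which binds MAX and opposes MYC, read 8.28, 8.76 and 7.67 across WT against 7.38, 6.95 and 7.48 across Evi1 Tg. All Evi1 Tg arrays were below all WT arrays, and WT 3 was the lowest WT array. The difference was -0.97 (SE 0.28; -1.25 without WT 3; limma adjusted p = 0.288). Mlx had -0.12 (SE 0.10; -0.032 without WT 3) and Mga 0.068 (SE 0.092; 0.037 without WT 3).

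Genes of cell division followed the same split of the arrays as the nucleolar members. For 38 such genes median deviations were -0.55, -0.65 and 0.30 on the WT arrays against 0.24, 0.28 and 0.36 on the Evi1 Tg arrays, a range wider than that of the members. In all 38 the Evi1 Tg mean was the higher one, by a median of 0.59 (0.91 without WT 3). By limma 0 passed as higher with all arrays, 17 at an unadjusted p under 0.05, and 34 (89.5%) without WT 3. Of all genes 4.5% were higher at that unadjusted p and 1.73% passed as higher without WT 3. Among genes above background these shares were 7.57% and 3.79%. The summed intensity of these genes was 17541 to 34192 in WT and 31835 to 34608 in Evi1 Tg, against 30249 to 40406 and 37878 to 40326 for the members. The part of cell division in the nucleolar values was not tested.

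Some markers of blood cells had larger differences than the nucleolar genes, although those named here missed the test with all arrays and were picked after their values were seen. Of 12 myeloid leukaemia markers 7 lay above 0, and their summed intensity was 18509 to 21196 in WT and 21741 to 23834 in Evi1 Tg. By limma with all arrays 0 passed. At an unadjusted limma p under 0.05, 5 were higher and 3 lower, against 4.5% and 5.8% of all genes. In Csf2ra (-0.49), Ptprc (-0.39) and Hoxa10 (-0.39) all Evi1 Tg arrays lay below all WT arrays. Kit, a receptor of progenitor cells, had 1.22 (SE 0.18; 1.27 without WT 3; limma adjusted p = 0.0772, or 0.0364 without it). Mpo, an enzyme of early granulocytes, had 2.80 (SE 0.51; 3.36 without WT 3; limma adjusted p = 0.139, or 0.0175 without it). Cd34, a progenitor surface protein, had 2.53 (SE 0.77; 2.49 without WT 3; limma adjusted p = 0.315, or 0.221 without it). Kit, Mpo and Cd34 were higher on every Evi1 Tg array than on every WT array, but Cd34 rose unevenly. It read 5.70, 6.16 and 5.81 across WT, all below background (log2 6.21), against 9.16, 9.67 and 6.44 across Evi1 Tg. Adgre1, a macrophage marker, had -1.13 (SE 0.21; -1.23 without WT 3; limma adjusted p = 0.139, or 0.0476 without it), and Pf4, a megakaryocyte marker, -0.98 (SE 0.38; -1.43 without WT 3; limma adjusted p = 0.440, or 0.0293 without it). Taken whole, their lists did not share this direction with all arrays, but both hold genes below background. Of macrophage markers 5 of 9 lay above 0, with a median of 0.049 (0.0045 without WT 3). Among those above background, Vcam1 had -1.32 (SE 0.74) and Csf1r -0.31 (SE 0.16), whereas Cd68 had 0.64 (0.42 without WT 3) and Mertk 0.053. Of megakaryocyte markers 4 of 6 lay above 0, with a median of 0.054 (-0.027 without WT 3). Among those above background, Ppbp had -0.99 (SE 0.52; -1.57 without WT 3) and Gp9 0.21 (-0.034 without WT 3). All 8 markers of mast cells, basophils and eosinophils lay below 0, with a median of -0.32, and 0 passed by limma (3 at an unadjusted p under 0.05). Only 3 of the 8 were above background, and Ccr3 was nearly level (-0.0098). Their summed intensity was 470 to 1219 in WT and 376 to 481 in Evi1 Tg. Cpa3 read 4.65, 9.28 and 7.90 across WT against 4.72, 4.90 and 4.71 across Evi1 Tg, so WT 1 was like Evi1 Tg there. Neutrophil markers had median deviations of -0.11, 1.28 and -0.44 on the WT arrays against -0.20, -0.89 and 0.53 on the Evi1 Tg arrays, and their summed intensity was 4162 to 12958 in WT and 4003 to 11142 in Evi1 Tg. The part of these markers in the nucleolar values was not tested.

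**Figure D4:**
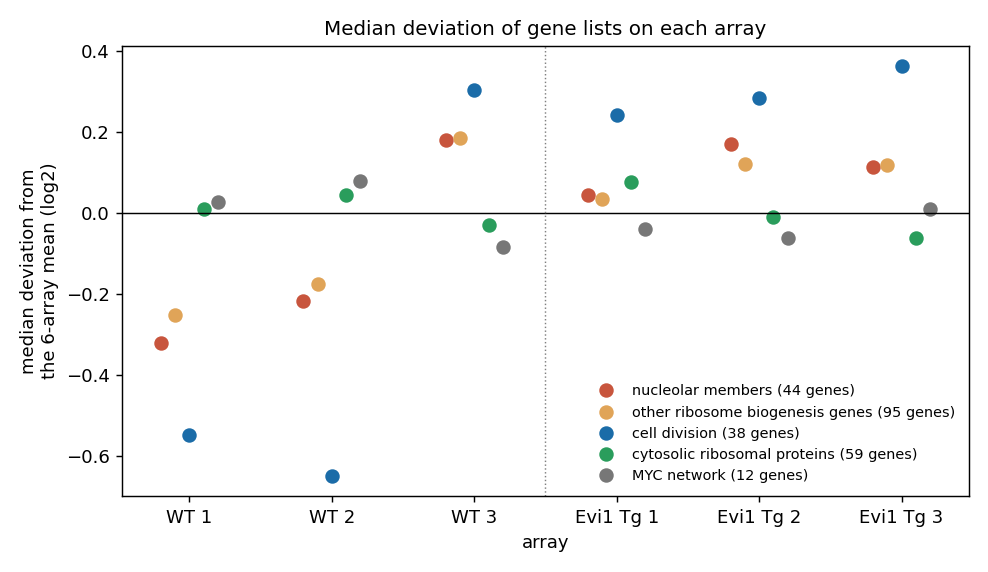
Median deviation of 5 gene lists from the gene's own mean over 6 arrays, in log2 units, for each array (1 point per list and array, offset sideways so that points do not overlap). Nucleolar members, other ribosome biogenesis genes and cell division genes are below 0 in WT 1 and WT 2 and above 0 in the other 4 arrays, while ribosomal proteins and the MYC network stay between -0.085 and 0.080.

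Several members also host snoRNAs, the guide RNAs of the particles described above, in their introns. RefSeq places 27 snoRNA genes inside 9 of the 47 members, and 10 of them, in 6 hosts, had a probe set of their own. Their differences ranged from -0.27 to 0.41, with 8 of 10 above 0. That is near the share of snoRNA genes above background anywhere in the genome, 52 of 67 (77.6%). Without WT 3 the differences of the 10 ranged from -0.15 to 0.50, with 5 above 0, against 26 of those 67. By limma with all arrays 0 passed over all genes while 2 had an unadjusted p under 0.05. Of the 67 snoRNA genes 7 were higher and 2 lower at that unadjusted p. Snord53 in Wdr43 read 7.98, 8.18 and 8.35 across WT against 8.59, 8.63 and 8.52 across Evi1 Tg. Its groups did not overlap, and the difference was 0.41 (SE 0.11; 0.50 without WT 3; limma adjusted p = 0.256), against 0.18 for its host.

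The snoRNAs and their hosts parted in WT 3. Snord82 (chr1:86356260-86356327, GRCm38.p6, inside Ncl) read 12.37, 11.93 and 11.42 across WT against 12.12, 12.01 and 12.11 across Evi1 Tg. Snord11 (chr1:59704808-59704870, inside Nop58) read 9.21, 9.14 and 8.45 across WT against 9.05, 9.38 and 9.42 across Evi1 Tg. In each the lowest array was WT 3, where Ncl and Nop58 had their highest signal. Snord69 in Gnl3 read 10.34, 10.11 and 9.29 across WT against 10.58, 10.48 and 9.90 across Evi1 Tg, and Snord110 in Nop56 11.16, 11.03 and 10.30 across WT against 10.88, 11.17 and 11.07 across Evi1 Tg. WT 3 was the lowest of the 3 WT arrays for 7 of the 10 snoRNAs and the lowest of all arrays for 6, while it was the highest WT array for 39 of the 44 members.

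Low snoRNA signal in WT 3 was found across the genome. Of 67 snoRNA genes above background anywhere in the genome, WT 3 was the lowest WT array for 59 (88.1%). The share of all genes with WT 3 as the lowest WT array was not counted. Median deviations of the snoRNA genes were 0.19, 0.039 and -0.48 on the WT arrays against 0.081, 0.11 and 0.062 on the Evi1 Tg arrays. Over all genes above background the median deviation on WT 3 was 0.079. The snoRNA genes had a median difference of 0.17 with all arrays and -0.050 without WT 3. The part of this in the values of the nucleolar members was not tested.

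**Figure D5:**
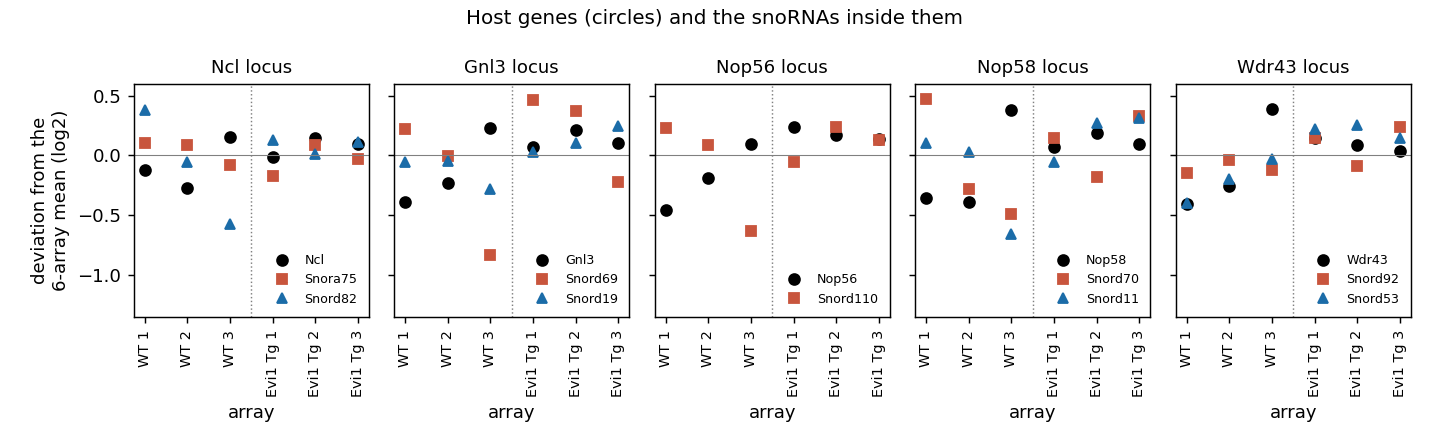
Log2 intensity of 5 host genes (circles) and of the snoRNAs inside them with a probe set of their own (squares and triangles), as the deviation from each one's mean over 6 arrays. In WT 3 the hosts lie above their mean, while Snord82, Snord69, Snord19, Snord110, Snord70 and Snord11 are at their lowest.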

How the data were processed

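Values were the probe set intensities in the deposited table, linear by their range. The sources used here do not give the normalization or background correction, either of which could hide a change shared by most genes. Per the labels' protocols, biotinylated cDNA was made with a GeneChip WT PLUS kit. Of 34351 probe sets 23521 carried 1 gene symbol in the platform's annotation. Log2 intensities (no pseudocount, no filter) of 1 probe set per gene, 22180 genes, entered a linear model with moderated variances (limma 3.58.1, lmFit then eBayes, under R 4.3.3), and p-values were adjusted by Benjamini-Hochberg over all genes. Differences are Evi1 Tg minus WT, with the moderated standard error (SE). Array medians of log2 intensity lay between 5.69 and 5.79, and the number of arrays limits the precision. The fit was also run on simulated data with independent noise, in which 200 of 22180 genes were changed 2-fold or 4-fold. It recovered 93% and 100% of these and called 15 unchanged genes. Changes as small as those of the members, and an array that stands apart as WT 3 did, were not simulated. Named members are, per role, the 3 with the smallest p and the one nearest 0, all members below 0, and 11 chosen for their textbook roles. The others have their difference only, unless said otherwise. Other lists give Myc and up to 2 genes per direction. The members, lists and alternatives were chosen with earlier results of these data known. Promoters and gene positions came from RefSeq (GRCm38.p6). Figures were drawn with matplotlib 3.10.9.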

Additional observations from a re-analysis of the deposited data

How the results depend on the processing

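Under each of 15 alternatives 0 members were called lower, and 0 were called higher except without WT 3. Leaving out each array in turn gave 0 to 5 members called higher, 34 to 44 members above 0, a median member difference of 0.12 to 0.37, 2 to 173 of all genes called lower and 0 to 383 called higher, with the highest counts without WT 3. With all arrays 23 genes were called lower and 2 higher. The counts were 82 and 32 with array weights, 9 and 0 with a pseudocount of 16, 6 and 0 with Evi1 Tg 1 and 2 averaged, and 6 higher both with dim genes left out and with trend and robust settings. The median member difference was 0.29 with array weights, 0.21 with quantile normalization, 0.19 with median centring and 0.21 with the mean over probe sets.

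Whether equal replicate numbers pair the samples is not known. Deviations of equal numbers from their group means correlated at 0.19, -0.18 and 0.061 across genes, which are not independent replicates. Unequal numbers were not compared, so these values cannot decide it. With a replicate block 9 genes were called lower and 0 higher, with 0 members among them, and the median member difference stayed at 0.20.

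The sign of small differences turned with the setting, and the cause was not tested. Npm1 had 1.0e-04 with quantile normalization and 0.056 with the mean over probe sets, and array weights gave 0.0087 for Polr1e, 0.026 for Ltv1 and 0.013 for Noc3l. Over the fits that left out 1 array, differences ran from -0.0064 to 0.27 for Bms1, -0.057 to 0.29 for Ddx10, -0.037 to 0.28 for Dkc1, -0.058 to 0.57 for Gar1, -0.30 to 0.17 for Ltv1, -0.20 to 0.15 for Noc3l, -0.13 to 0.047 for Npm1, -0.060 to 0.15 for Pes1, -0.052 to 0.49 for Pno1, -0.23 to 0.10 for Polr1e, -0.047 to 0.30 for Rrn3, -0.10 to 0.46 for Rrs1 and -0.015 to 0.37 for Wdr12. The other 31 members kept their sign throughout. The number of arrays limits these values.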
